A study of Triticum aestivum with 8 samples.

Results

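Transcript levels in cold-acclimated crowns were compared between a freeze resistant (FR) and a freeze susceptible (FS) winter wheat line, with 2 arrays for FR CA and 2 for FS CA out of the 8 arrays of the series. Both lines are sodium azide mutants of the winter cultivar Winoka, so that they share its background and the mutagenesis, and each is a single line, SD16029 for FR and SD16169 for FS. FR CA and FS CA plants were moved from the greenhouse to 4°C for 4 weeks once they had reached the third or the fourth leaf, and the non-acclimated FR NT and FS NT plants, labelled 25°C, were harvested at that leaf stage without cold. CA plants were thus both colder and 4 weeks further from sowing than NT plants, a difference that the lines share. The members are all 61115 probe sets of the Affymetrix wheat array that remained after 175 control probe sets were set aside, and each is described by its level in both lines in the cold and by the difference FR CA minus FS CA. RNA for an array came from a pool of 3 biological replicates, and arrays of a group were technical replicates by the study's description, so that every p-value below measures only the spread between arrays, whose small number limits the precision.

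The crown of winter wheat, the stem base just above the roots, carries the meristems from which a plant regrows after winter, and its survival decides whether the plant survives. Weeks at low, non-freezing temperature raise the freezing tolerance of winter cereals, a process called cold acclimation. Its best known arm runs through the Cbf transcription factors, which bind C-repeat elements in the promoters of cold-regulated genes and induce COR and LEA proteins, hydrophilic proteins thought to protect membranes and other proteins from dehydration during freezing.

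Signals are log2 values with a floor of 2.15, and the medians of the 4 CA arrays were 2.86 to 2.88, so that a signal under about 2.88 lies in the dimmer part of the array. The hybridization controls, spiked into each sample, averaged 10.61 on FR CA replicate 1 and 11.62 to 11.81 on the other CA arrays. The part of that gap in the line differences was not tested, since no alternative scaled the arrays by these controls. Over the 24415 probe sets above 4 on every array, the FS CA arrays correlated with each other at 0.9939 and the FR CA arrays at 0.9864, while FR CA replicate 2 and FS CA replicate 2 reached 0.9879. In NT each array correlated more closely with both arrays of the other line (0.9908 to 0.9935) than with its own replicate (0.9874 in FR, 0.9883 in FS). The labels were kept as given. The 5′ probe set of the sucrose synthase control was lower on replicate 2 than on replicate 1 in every group, in CA at 6.71 against 8.71 for FR and at 7.74 against 8.70 for FS.

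The largest differences between the lines in the cold were transcripts that stood higher in FR. A difference was called at an adjusted p under 0.05 in limma, a linear model across all probe sets that shares 1 estimate of the spread among the 4 groups. By this rule 228 probe sets (0.373% of those tested) differed between FR CA and FS CA, 151 of them higher in FR (0.247%) and 77 lower (0.126%), and the arrays of the lines did not overlap for any of the 228. The 151 had a median difference of 1.31, which is 2.48-fold, and 87 of them reached 2-fold, 52 reached a log2 difference of 2 and 32 a log2 difference of 3. The 77 had a median difference of -0.58, and only 19 reached 2-fold. A log2 difference of 0.3 was reached by 133 of the 151 and by 58 of the 77. The smallest called differences were 0.003 and -0.013, on signals near the floor. Over all tested probe sets the median difference was 0.00 and the median size of a difference 0.043.

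**Figure D1:**
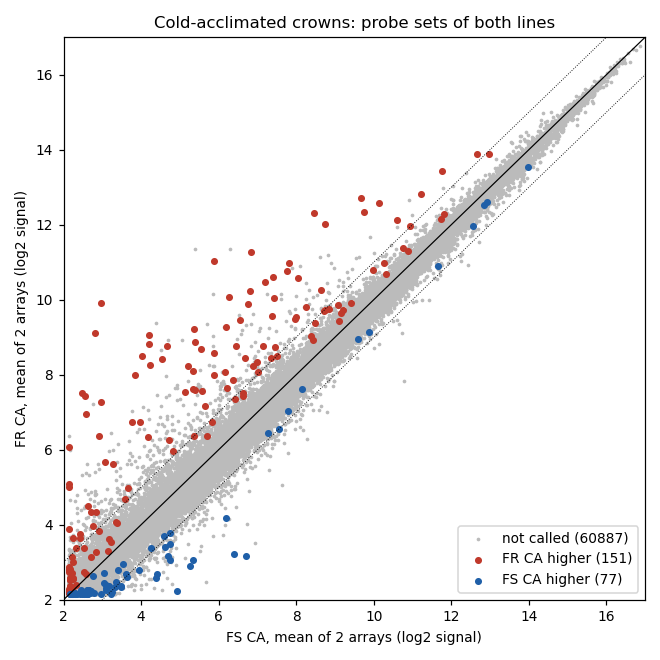
Mean log2 signal of the 2 FR CA arrays (vertical axis) against that of the 2 FS CA arrays (horizontal axis) for the 61115 tested probe sets, with the 151 called higher in FR in red and the 77 called lower in blue; the solid line marks equal signals and the dotted lines 2-fold. The red points reach much farther from the line than the blue ones, and many blue points lie at the low end of both axes.

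Small differences were not tilted toward FR. At an unadjusted p under 0.05 there were 1892 higher and 2776 lower probe sets (7.64% in all). Counted by size alone among probe sets whose arrays did not overlap, a log2 difference of at least 0.5 was seen 1484 times with FR higher and 1891 times with FS higher, at least 1 (2-fold) 534 times (0.874%) and 277 times (0.453%), at least 2 in 153 and 22, at least 3 in 52 and 4, and at least 4 in 22 and 0. In NT the same count at 2-fold was 30 in each direction, and at a log2 difference of 2 it was 1 with FR higher and 0 with FS higher.

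**Figure D2:**
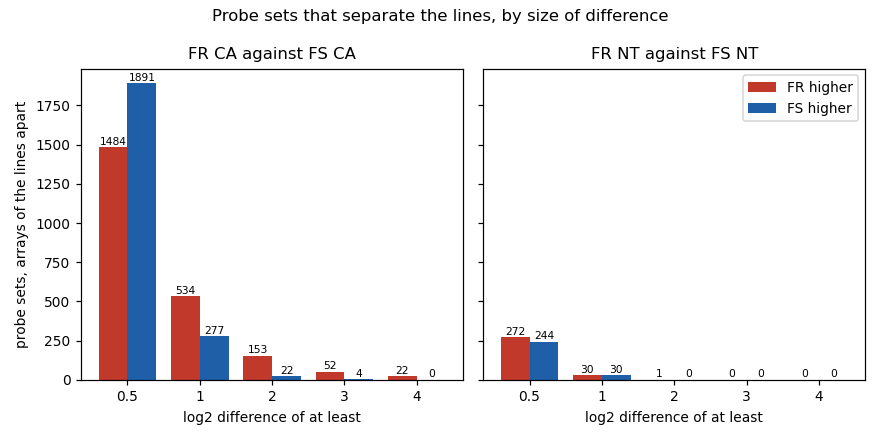
Number of probe sets whose 2 FR arrays lie wholly above (red) or below (blue) the 2 FS arrays, at log2 differences of at least 0.5, 1, 2, 3 and 4, after cold acclimation (left) and before it (right). FS-higher bars lead at 0.5 in the cold and FR-higher bars lead from 1 upward, with 534 against 277 at 1 and 22 against 0 at 4.

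The number of calls depended on how the spread was estimated. With only the 4 CA arrays in the model, 31 were called higher and 22 lower, and 13 of these 53 are among the 228. Of the 10 largest differences in each direction described below, 1 of the higher (Ta.28224.3.S1_x_at) and 0 of the lower were called by that model. A robust prior gave 25 and 10. Leaving out an array leaves a group with 1 array, which has no spread of its own. The counts of such fits therefore cannot show how far the calls depend on an array, and are not given.

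Among the called transcripts, those higher in FR were mostly bright and those lower in FR mostly dim. In 96 of the 151 (63.6%) the FR CA mean was over 6, against 14 of the 77 (18.2%) with an FS CA mean over 6. For 25 of the 151 and 33 of the 77, all 4 CA arrays lay under 2.88, so that these calls rest on signals near the floor. Restricting the test to the brighter part of the array, the probe sets above the median, gave 212 higher and 47 lower.

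The transcript with the largest called difference was TaAffx.79075.1.S1_at, whose log2 signals were 9.89 and 9.91 in FR CA and 2.15 and 3.79 in FS CA. Both FR arrays stayed close to the NT arrays of the lines (10.01 to 10.45), whereas 1 FS array was at the floor. The difference was 6.93 ± 0.56 (SE, adjusted p = 0.0381), or 122-fold, and 95.6-fold with signals under the array median raised to it. Ta.23414.2.S1_at followed with 9.06 and 9.16 in FR CA against 2.53 and 3.11 in FS CA. Its 4 NT arrays, at 6.71 to 7.50, lay between the lines in the cold. The difference was 6.29 ± 0.33 (SE, adjusted p = 0.0151), 78.0-fold as measured and 69.8-fold with the FS array under its median raised to it. None of the 20 probe sets with the largest differences, 10 in each direction, carries a gene symbol in the array's annotation. No function can therefore be given for them. Some of them share a cluster and may measure the same transcript. Counts of transcripts in this report are counts of probe sets.

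The other 8 of the top 10 differed in how the lines stood to NT. TaAffx.112230.1.S1_at read 9.16 and 8.94 in FR CA, 3.68 and 4.73 in FS CA, and 7.33 to 7.64 in NT, so that FR stood above and FS below the non-acclimated level (4.84 ± 0.37, SE, adjusted p = 0.0328). TaAffx.43752.1.A1_at read 7.43 and 7.58 in FR CA, 2.53 and 2.45 in FS CA and 3.56 to 4.56 in NT, a difference of at least 25.0-fold (adjusted p = 0.0264). Its companion TaAffx.43752.1.A1_x_at gave 7.48 and 7.41 against 2.54 on both FS arrays, at least 24.0-fold (adjusted p = 0.0136). In these 3 the FR CA arrays were the brightest of the 8 and the FS CA arrays the dimmest. Here and below, at least N-fold gives the estimate with signals under the array median raised to it. It is not the lower end of an interval.

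Ta.28224.3.S1_x_at stayed at its NT level in FR and not in FS, with 8.51 and 8.47 in FR CA, 4.02 and 4.04 in FS CA and 7.93 to 8.76 in NT (4.46 ± 0.29, SE, adjusted p = 0.022). This was also 1 of the 13 probe sets shared with the test on the 4 CA arrays alone (adjusted p = 0.03 there). In the remaining members of the top 10 both lines lay below NT in the cold, and FS by more. TaAffx.71647.1.A1_at read 11.19 and 11.35 in FR CA, 6.70 and 6.96 in FS CA, and 13.26 to 13.61 in NT (4.44 ± 0.18, SE, adjusted p = 0.00811). TaAffx.71647.1.A1_x_at differed by 5.15 ± 0.47 (SE), Ta.23128.1.S1_at by 4.64 ± 0.34 and Ta.13803.1.S1_x_at by 4.39 ± 0.33, with adjusted p of 0.0493, 0.0305 and 0.0309.

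**Figure D3:**
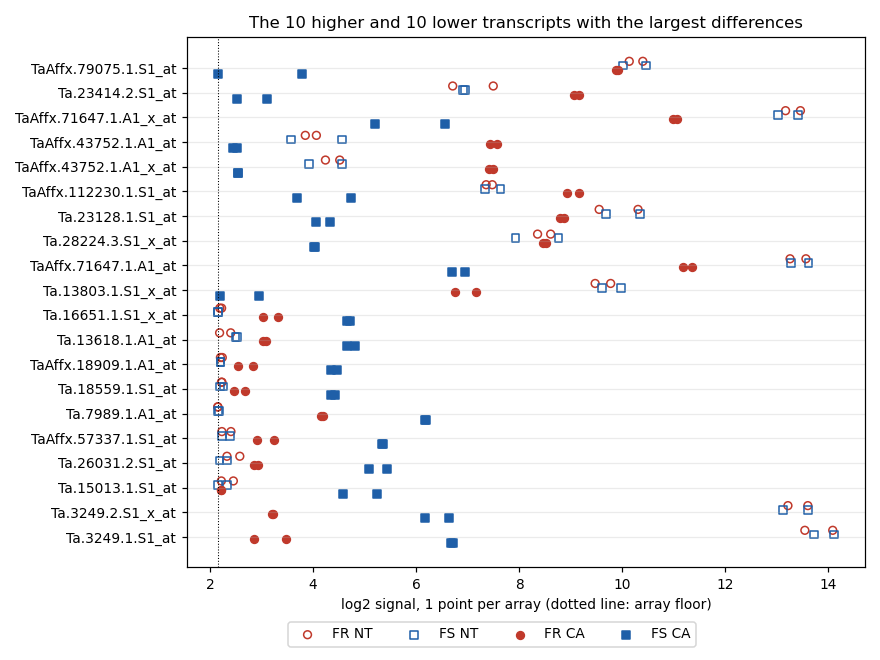
Log2 signal on each of the 8 arrays (1 point per array) for the 10 called transcripts with the largest FR-higher differences (upper 10 rows) and the 10 with the largest FS-higher differences (lower 10 rows), FR as red circles and FS as blue squares, NT open and CA filled. Filled symbols of the lines are apart in every row, the open symbols lie together, and 8 of the lower 10 rows have NT signals near the floor of 2.15 (dotted line).

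These positions were also counted over whole sets. Taking a mean within a log2 distance of 1 of the mean of the 4 NT arrays as level with NT, 41 of the 87 called transcripts that were at least 2-fold higher in FR had both lines below NT, 22 had FR level and FS below, 16 had FR above and FS level, 7 had FR above and FS below, and 1 had both lines level. Their median levels were 9.93 in FR NT, 9.98 in FS NT, 8.41 in FR CA and 5.55 in FS CA. In the wider set of 534 that were 2-fold apart without regard to a test, 315 had both lines below NT, 105 had FR level and FS below, 76 had FR above and FS level, 16 both level, 12 both above and 10 FR above and FS below, with median levels of 8.89 and 8.90 in NT, 6.80 in FR CA and 4.86 in FS CA. These positions are a description, with no test of CA against NT within a line. Their share over all tested probe sets was not counted. A 2-fold difference between the lines itself limits which positions can occur. Both limits hold as well for the positions of transcripts higher in FS, given below. In bulk crown tissue, fewer cells of a type and less RNA per cell cannot be told apart.

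A clear instance of a transcript held at its NT level in FR was TaAffx.85615.1.S1_at, singled out after its values were seen because it was called under 16 of 17 alternatives. Its signals were 10.90 and 11.04 in FR CA, 7.75 and 7.89 in FS CA, and 10.75 to 10.95 on the 4 NT arrays. Only the FS CA arrays stood apart from the other 6. The difference of 3.15 ± 0.11 (SE, 95% interval 2.87 to 3.44, adjusted p = 0.00573) is 8.89-fold. With only the 4 CA arrays its adjusted p was 0.11. Of the 17 alternatives, 9 did not leave out an array. Fits that left out a CA array called far more probe sets, so that a call repeated there adds little, here and for the transcripts below.

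Complete on-off transcripts were absent by the criterion used, which asked for both arrays of a line within 0.1 of the floor and both of the other above 6 (0 transcripts). With the upper bound lowered to 4, after the values were seen, 6 transcripts were at the floor in FS CA and 1 in FR CA, and 4 of these 7 were called. TaAffx.98930.1.A1_at was at the floor on the FS CA arrays and on all 4 NT arrays and read 6.40 and 5.75 in FR CA, at least 9.29-fold higher (adjusted p = 0.0169). TaAffx.15961.1.S1_at read 4.84 and 5.18 in FR CA against 2.15 on both FS CA arrays, at least 4.44-fold (adjusted p = 0.0428). TaAffx.9559.1.S1_at, at 7.39 and 5.32 in FR CA and 2.15 on the other 6 arrays, was not called (adjusted p = 0.174), its FR arrays lying far apart. TaAffx.132460.1.S1_at and, in the opposite direction, Ta.15013.1.S1_at were the other called transcripts of this kind.

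Among transcripts higher in FS, the largest differences belonged to the Ta.3249 cluster. Ta.3249.1.S1_at read 3.46 and 2.85 in FR CA, 6.67 and 6.72 in FS CA and 13.54 to 14.11 in NT, so that both lines lay far below NT and FR farther. The difference was -3.54 ± 0.30 (SE, adjusted p = 0.0415), 11.6-fold. Ta.3249.2.S1_x_at showed the same order, with 3.23 and 3.21 in FR CA against 6.63 and 6.16 in FS CA (-3.18 ± 0.26, SE, adjusted p = 0.0363).

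The other 8 of the 10 were near the floor in NT and stood higher in FS CA than in FR CA. Ta.7989.1.A1_at was at 2.15 to 2.18 in NT, 4.20 and 4.15 in FR CA and 6.17 and 6.20 in FS CA. Both lines were thus brighter in the cold, FS by more, and the arrays of a line lay close together. Its difference of -2.01 ± 0.04 (SE, 95% interval -2.11 to -1.91, 4.03-fold) had an adjusted p of 0.000731 and was called under 15 of 17 alternatives, the exceptions including the 4 CA arrays alone (adjusted p = 0.17). Ta.15013.1.S1_at read 2.22 on both FR CA arrays and 4.59 and 5.25 in FS CA, at least 4.13-fold higher in FS (adjusted p = 0.0434). Ta.26031.2.S1_at (-2.37 ± 0.15), TaAffx.57337.1.S1_at (-2.28 ± 0.14), Ta.18559.1.S1_at (at least 2.84-fold higher in FS), TaAffx.18909.1.A1_at (at least 2.90-fold), Ta.13618.1.A1_at (-1.68 ± 0.09) and Ta.16651.1.S1_x_at (-1.51 ± 0.10) had FS CA signals between 4.34 and 5.43 and adjusted p of 0.00991 to 0.0219.

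In number, 14 of the 19 called transcripts that were at least 2-fold higher in FS had FR level with NT and FS above it, 3 had both lines below, 1 had both above, and 1 had FR below and FS level. Their median levels were 2.32 in FR NT, 2.26 in FS NT, 2.89 in FR CA and 4.69 in FS CA. The wider set of 277 held 115 with FR level and FS above, 79 with both above, 59 with both below, 19 with FR below and FS level, 4 with both level and 1 with FR below and FS above. It was brighter than the called set, with median levels of 3.49 in FR NT, 3.47 in FS NT, 4.17 in FR CA and 5.61 in FS CA.

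Fewer probe sets were called between the lines in NT, although the gap depended on the arrays fitted. Without cold, 13 probe sets (0.0213%) were called, 8 higher in FR (0.0131%) and 5 lower (0.00818%), with 874 (1.43%) at an unadjusted p under 0.05. Of the 13, 12 lay under the array median on all 4 NT arrays, and the largest difference was 0.59. With only the 4 arrays compared, the counts were 28 in NT and 53 in CA. Leaving out an NT array leaves a group with 1 array and no spread of its own, so that the counts of such fits cannot decide the order. None of the 228 was called in NT, where their differences ran from -0.43 to 0.23. Because the spread is shared by the 4 groups, a called probe set had to have close arrays in NT also, so that this range is narrow in part by selection. The wider sets of 534 and 277 used no NT array. In NT the 534 had a median difference of -0.015 (range -0.70 to 1.21), 526 of them lay within 0.5 of 0, and 2 were 2-fold higher in FR. Of the 277, with a median of 0.00 (range -0.90 to 1.05), 267 lay within 0.5 of 0 and 1 was 2-fold different, in the opposite direction. Over all tested probe sets, 98.4% lay within 0.5 of 0 in NT. The NT arrays of the lines were apart in the same direction as in the cold for 13 of the 534 and 27 of the 277, and in the other direction for 27 and 19, where 10.4% of all tested probe sets were apart in NT. Since NT arrays correlated more closely across the lines than within them, the spread within a line in NT was wide, with a median gap between the FR NT arrays of 0.35 for the 534. The NT differences, and the differences in response below, rest on the line labels as given, which were not tested.

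**Figure D4:**
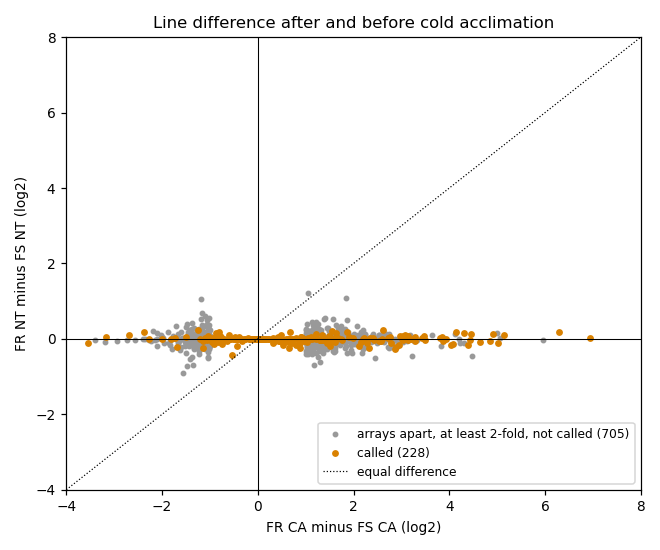
FR minus FS before cold acclimation (vertical axis, log2) against FR minus FS after it (horizontal axis, log2), for the 228 called probe sets (orange) and the 705 others whose arrays were apart and at least 2-fold different in the cold (grey); the dotted line marks equal differences. The points spread along the horizontal axis and lie close to 0 on the vertical one, from -0.90 to 1.21.

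The difference between the responses of the lines was tested on the same arrays, as FR minus FS in CA less FR minus FS in NT, and 66 probe sets were called (0.108%), 39 positive (0.0638%) and 27 negative (0.0442%). TaAffx.85615.1.S1_at (3.16, adjusted p = 0.0187), TaAffx.71647.1.A1_at (4.47, adjusted p = 0.0312), Ta.7989.1.A1_at (-2.0, adjusted p = 0.00252) and Ta.18559.1.S1_at (-1.81, adjusted p = 0.0369) were among them.

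Several probe sets of the array often stem from 1 transcript cluster, given by the number before the second point of their names. The 228 fell into 214 clusters, and 12 clusters held 2 or more calls, 26 probe sets in all, with 0 clusters called in both directions. All 3 probe sets of Ta.28224 were higher in FR, Ta.28224.1.S1_x_at by 3.86 ± 0.33 (SE) and Ta.28224.2.S1_x_at by 3.14 ± 0.25 beside the 4.46 given above. TaAffx.132460.1.S1_x_at was higher by 4.04 ± 0.23 (SE), with 8.25 and 8.29 in FR CA against 4.26 and 4.21 in FS CA, and Ta.13803.1.S1_s_at by 2.90 ± 0.24. Of the 249 uncalled probe sets that share a cluster with a called one, 148 differed in the same direction, 99 with arrays apart, and 18 had arrays apart in the other direction. Probe sets of a cluster can share sequence, and names ending in x_at or s_at mark probes that can bind more than 1 transcript, so that they are not independent.

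Few of the transcripts that separated the lines have a gene name. The annotation gives a symbol for 1273 probe sets (771 symbols) and none for 59842, and 3 of the 1273 were called (0.236%, against 0.373% of all), all higher in FR. At an unadjusted p under 0.05 there were 69 higher and 90 lower (12.5% of the annotated). Of the 534 and 277 transcripts 2-fold apart, 10 and 13 carry a symbol.

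LOC542847 was the named gene that separated the lines most clearly. Its probe set Ta.2882.1.S1_s_at read 12.77 and 12.64 in FR CA, 9.69 and 9.65 in FS CA, and 13.40 to 13.59 in NT. Both FR arrays were brighter than both FS arrays by about 3 log2 units, and all 4 lay below the NT arrays. The difference was 3.04 ± 0.08 (SE, 95% interval 2.83 to 3.25, adjusted p = 0.0025), 8.21-fold, called under 16 of 17 alternatives and missed with the 4 CA arrays alone (adjusted p = 0.064). In NT it was 0.06 (95% interval -0.15 to 0.28). The other probe set of the gene, Ta.2882.1.S1_at, read 10.34 and 10.58 against 7.13 and 7.24, 9.69-fold (adjusted p = 0.0404). The tables used here give no function for this gene.

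The other called gene was GLU1A, a beta-glucosidase that in wheat releases toxic benzoxazinoids, defence compounds of young cereals, from their stored glucosides. Ta.4601.2.S1_at read 9.36 and 9.41 in FR CA, 8.45 and 8.52 in FS CA, and 14.21 to 14.40 in NT. The lines did not overlap in the cold, although both lay far below NT. Its difference was 0.90 ± 0.08 (SE, adjusted p = 0.0428), 1.86-fold, and it was called under 5 of 17 alternatives (adjusted p of 0.018 to 0.2).

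Further named genes were 2-fold or more different at an unadjusted p under 0.05 without passing the adjusted threshold, and were picked for their values. WZF1, a C2H2 zinc finger protein, read 8.97 and 9.51 in FR CA, 7.06 and 7.08 in FS CA, and 10.43 to 11.38 in NT (2.17 ± 0.40, SE, adjusted p = 0.219). LOC100037599 read 8.66 and 8.88 in FR CA against 5.85 and 5.83 in FS CA on Ta.16082.1.A1_at (2.92 ± 0.48, SE, adjusted p = 0.183), with a second probe set at 2.72. For both genes the arrays of the lines were apart in CA and overlapped in NT. LOC100037556 differed by 1.57 (adjusted p = 0.43).

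PRK, phosphoribulokinase of the Calvin cycle, lay on the other side, at 4.74 and 4.78 in FR CA, 5.82 and 6.29 in FS CA, and 11.53 to 12.34 in NT (-1.30 ± 0.34, SE, adjusted p = 0.392). LOC543256 read 2.74 and 4.66 in FR CA against 5.86 and 5.84 in FS CA (-2.15 ± 0.75, SE, adjusted p = 0.583). For the latter the FR arrays lay farther from each other than the nearer of them from FS.

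Gene groups known from cold acclimation were next compared through their annotated members, and 0 members of the 12 lists passed the adjusted threshold. No direction of a list was tested, and several probe sets often measure 1 gene. As a background, 34.6% of the 1273 annotated probe sets were higher in FR and 50.4% in FS, arrays were apart with FR higher in 14.4% and with FS higher in 24.0%, and 5.42% were higher and 7.07% lower in FR at an unadjusted p under 0.05. Over all tested probe sets the arrays were apart in 9.58% with FR higher and in 15.5% with FS higher. The Cbf list held 12 probe sets of 11 genes, 0 called, 3 at an unadjusted p under 0.05, all higher in FR, with a median difference of 0.09 beside 0.00 over all probe sets. The list lacks Cbf-3, Cbf-6 and Cbf-12, so that the counts and the median do not describe the whole family. The study reports these, together with Cbf-5, Cbf-14 and Cbf-19, as rising with cold in FR crowns and not in FS crowns. For Cbf-3, Cbf-5 and Cbf-12 it also reports this pattern by RT-PCR, on aliquots of the array RNA. Cbf-5 (LOC778407) read 6.88 and 7.58 in FR CA, 2.76 on both FS CA arrays, and 4.35, 2.83, 3.09 and 5.01 on the NT arrays (FR first). It was the brightest in FR CA and dimmest in FS CA, at least 20.7-fold apart, and was not called (4.47 ± 0.84, SE, adjusted p = 0.234, and 0.227 with only the 4 CA arrays). Cbf-14 (LOC606349) read 4.37 and 4.34 against 3.11 and 3.36, 1.12 ± 0.17 (SE, adjusted p = 0.149). Cbf-19 (LOC100037623), at 4.84 and 3.66 in FR CA and 3.08 on both FS CA arrays, differed by 1.17 (adjusted p = 0.543), and its FR arrays were farther apart than FR replicate 2 was from FS. Cbf-2, Cbf-A22 and the Cbf-B22 probe sets differed by -0.32 to 0.94, with arrays that overlapped between the lines except for the s_at probe set of Cbf-B22, and 5 probe sets of the list lay under the array median on all CA arrays.

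No annotated COR, LEA or dehydrin probe set was called in either direction. Most called probe sets carry no symbol, so that unnamed members of these families among them cannot be told. Of the list's 18 probe sets (11 genes), 16 were higher in FS and 2 in FR, 6 had an unadjusted p under 0.05, all lower in FR, and 8 had arrays apart with FS higher against 1 with FR higher. The median difference was -0.29. EMH2, an embryo LEA protein, read 5.06 and 3.90 in FR CA against 6.52 and 6.36 in FS CA on Ta.25025.1.S1_at (-1.96 ± 0.56, SE, adjusted p = 0.461). Its other probe sets differed by -0.30 and -0.08. EM, of the same protein family, read 3.93 and 4.01 against 4.71 and 5.25 (-1.01 ± 0.19, SE, adjusted p = 0.225). A further EM probe set, Ta.2798.1.S1_x_at, differed by -0.04. The bright members were closer between the lines, with Wrab18 at 12.57 and 13.02 against 13.40 and 13.41 (-0.61 ± 0.15, SE, adjusted p = 0.363) and the dehydrin Rab15 at 13.98 and 14.43 against 14.66 and 14.78 on TaAffx.46097.2.S1_at (-0.51). Brighter probe sets of Rab15 differed less, Ta.2704.1.S1_at by -0.10 and Ta.2704.1.S1_x_at by -0.11, with arrays that overlapped between the lines. For Wrab18 and Rab15 alike, FR CA replicate 1 was the lowest of the CA arrays. The mean over the whole list was 9.20 and 9.45 in FR CA against 9.73 and 9.65 in FS CA.

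**Figure D5:**
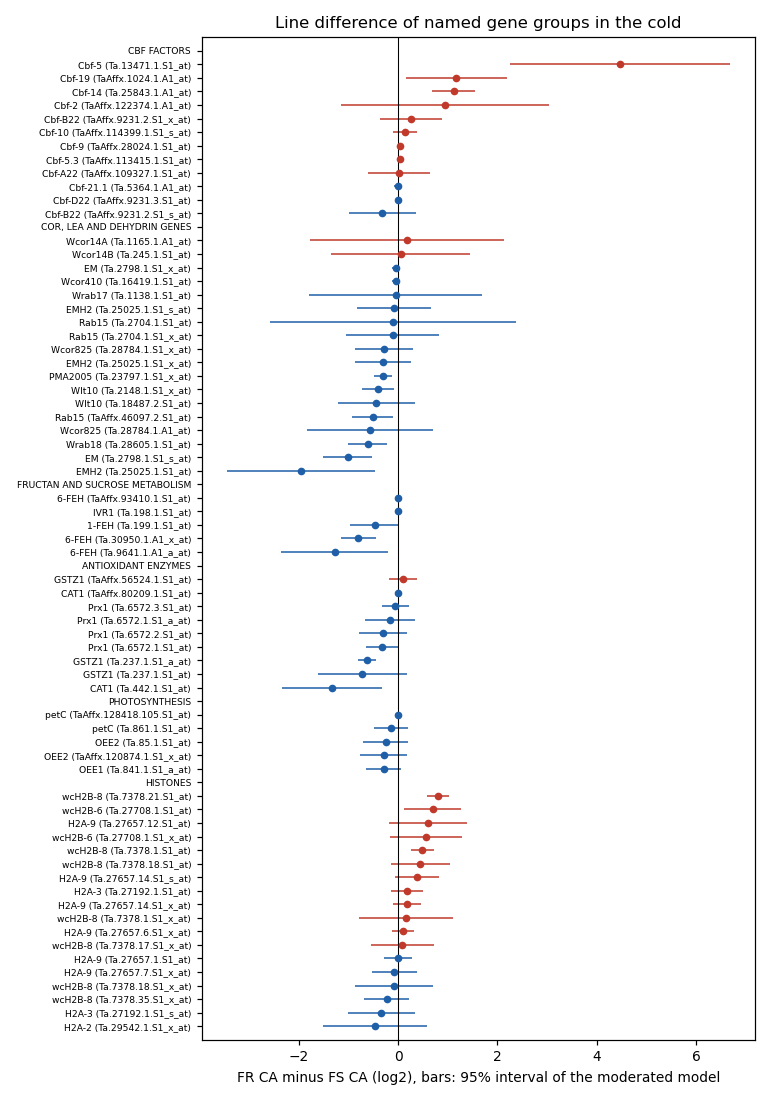
FR CA minus FS CA (log2) of every annotated probe set in 6 gene lists, with 95% intervals of the moderated model; red points are higher in FR and blue points higher in FS. Cbf-5 stands farthest to the right at 4.47, most COR, LEA and dehydrin, fructan, antioxidant and photosynthesis probe sets lie left of 0, and most histone probe sets right of it.

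Fructan exohydrolases, which release fructose from stored fructans, were measured by few probe sets. The fructan and sucrose list had 5, 0 called, 2 at an unadjusted p under 0.05 (both lower in FR), and a median of -0.47. 6-FEH read 5.42 and 5.52 in FR CA against 6.36 and 6.19 in FS CA on Ta.30950.1.A1_x_at (-0.80 ± 0.13, SE, adjusted p = 0.181), and 4.77 and 5.03 against 6.34 and 6.02 on Ta.9641.1.A1_a_at (-1.28). For both, the arrays of the lines were apart. The third probe set with a signal, for 1-FEH, differed by -0.47, and the remaining ones (IVR1 and a further 6-FEH probe set) were at the floor.

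Antioxidant enzymes, which remove peroxides and related compounds, likewise gave no call. Of 9 probe sets of 3 genes, 7 were higher in FS and 1 in FR, 3 had an unadjusted p under 0.05 (all lower in FR), and the median was -0.30. Catalase CAT1 read 4.14 and 3.85 in FR CA, 5.29 and 5.39 in FS CA and 8.66 to 9.68 in NT on Ta.442.1.S1_at (-1.34 ± 0.38, SE, adjusted p = 0.452). The glutathione transferase GSTZ1 came closest to a call, at 11.27 and 11.35 in FR CA against a mean of 11.94 in FS CA on Ta.237.1.S1_a_at (-0.63 ± 0.07, SE, adjusted p = 0.08). It was not called under any of the 17 alternatives (adjusted p of 0.054 to 0.72). Another GSTZ1 probe set, TaAffx.56524.1.S1_at, went the other way. It read 10.30 and 10.41 in FR CA against 10.29 and 10.22 in FS CA, a difference of 0.10.

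Crown tissue was taken as non-photosynthetic, and the leaf markers were therefore set beside the results. The 5 photosynthesis probe sets (OEE1 and OEE2 of photosystem II and petC of the cytochrome b6/f complex) averaged 9.26 and 9.15 in FR CA, 9.46 and 9.35 in FS CA and 11.31 to 11.57 in NT. In 4 of the 5 the FS CA arrays lay above the FR CA arrays, by 0.15 to 0.29, 0 were called, 0 had an unadjusted p under 0.05, and the median was -0.25. petC read 13.24 and 13.30 in FR CA against 13.48 and 13.36 in FS CA on Ta.861.1.S1_at, and OEE1 averaged 13.30 against 13.59. OEE2 read 10.16 and 10.04 against 10.48 and 10.22 on Ta.85.1.S1_at. On TaAffx.120874.1.S1_x_at it read 7.27 and 7.15 against 7.57 and 7.43. The fifth probe set, also for petC, was at the floor, so that the markers differed widely in brightness in both lines. PRK and CAT1 stood on the FS side like these markers, and the part of leaf tissue in those differences was not tested. Of 17 grain storage probe sets, 14 lay under the array median on all CA arrays, and no root marker had a name in the annotation.

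Histones, the DNA-packaging proteins made mostly while cells replicate their DNA, gave no call among the annotated members. The list held 18 probe sets of 5 genes, 12 higher in FR and 6 in FS, with 3 at an unadjusted p under 0.05, all higher in FR, and a median of 0.17 (range -0.47 to 0.80). The histone wcH2B-8 read 8.30 and 8.39 in FR CA, 7.58 and 7.53 in FS CA and 14.22 to 14.39 in NT on Ta.7378.21.S1_at (0.80 ± 0.08, SE, adjusted p = 0.0663), and wcH2B-6 read 9.03 and 8.99 against 8.46 and 8.18 on Ta.27708.1.S1_at (0.69, adjusted p = 0.52). Other probe sets of wcH2B-8 went both ways. Among them Ta.7378.1.S1_at differed by 0.49 and Ta.7378.35.S1_x_at by -0.23, the latter with arrays apart and FS higher. In the same cluster as wcH2B-8, Ta.7378, 3 of 38 probe sets were called, all without a symbol of their own. Ta.7378.6.S1_at was higher in FR by 1.36 ± 0.11 (SE, adjusted p = 0.0342), Ta.7378.22.S1_at by 0.90 ± 0.04 (adjusted p = 0.0101) and Ta.7378.8.S1_x_at by 0.42 ± 0.04 (adjusted p = 0.0485). Their FR CA and FS CA arrays lay between 6.80 and 11.34 where the NT arrays stood at 13.40 to 14.87, and near-identical histone copies can share these probes.

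The remaining lists gave smaller differences. Tubulins, of the microtubules, had 8 of 10 probe sets higher in FR, 0 called, 2 at an unadjusted p under 0.05 (both higher) and a median of 0.15, with Tubb5 at 13.13 and 12.95 against 12.65 and 12.63 on Ta.214.2.A1_at (0.40 ± 0.09, SE, adjusted p = 0.329). Thionins, PR5 and the lipid transfer protein LTP3 had 8 probe sets, 0 called and a median of 0.03, with LTP3 at 12.67 and 12.68 against 12.05 and 11.93 on Ta.1282.1.S1_x_at (0.69 ± 0.15, SE, adjusted p = 0.312). The gibberellin oxidases (4 probe sets, median 0.04) ranged from -0.10 to 0.50, the cell wall genes XTH and COMT1 differed by 0.29 and -0.10, and the small heat shock protein hsp16.9A read 2.37 on every CA array, against 11.14 to 12.94 in NT.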

How the data were processed

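Crown RNA of FR and FS was measured on 8 Affymetrix wheat arrays, 2 per group. The authors deposited log2 signals per probe set, made in R/Bioconductor by gcRMA, which corrects background from probe sequence and normalizes between arrays. RMA and GCRMA are the tools in the submitters' processing notes. Groups follow the deposited labels. In R 4.3.3, limma 3.58.1 fitted the log2 values as deposited, with no filter, a mean per group over the 8 arrays, and variances moderated along an intensity trend (degrees of freedom 4 residual, 0.623 prior). p-values were adjusted by Benjamini-Hochberg over 61115 probe sets, and probe sets were called at 0.05. Intervals are 95% intervals of the model. Differences written as at least N-fold are estimates made after raising signals to their array median, and not lower ends of intervals. The fit was tested on simulated data. Alternatives changed the prior, the arrays fitted, the filter, the scaling, the floor and the replicate block, or left out an array.

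Named transcripts are the 10 called with the largest differences in each direction, called genes with a symbol, on-off transcripts, Cbf and Cor/Lea genes, the largest differences in each gene list, and the 6 clusters with most calls, together with those named as picked for their values. The members and lists were chosen with earlier results of these data known. Gene names come from the array's annotation and from RefSeq synonyms (IWGSC CS RefSeq v2.1), in which 1272 of 1273 annotated probe sets matched. Vernalization genes and Cbf and Cor/Lea genes not named were not analysed here. Python 3.11.15 with matplotlib 3.10.9 drew the figures.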

Additional observations from a re-analysis of the deposited data

Results flagged for a closer look

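For 6 of the 157 named probe sets the difference between the lines changed between NT and CA by the limma test of that change. The p-values were adjusted over all probe sets, of which 66 (0.108%) were called. All 6 were also called between FR CA and FS CA. That difference is part of the tested one, so that the choice of named probe sets favoured passing. The values are FR minus FS in CA less FR minus FS in NT. TaAffx.71647.1.A1_at gave 4.47 (adjusted p = 0.0312), TaAffx.85615.1.S1_at 3.16 (adjusted p = 0.0187), Ta.2882.1.S1_s_at of LOC542847 2.97 (adjusted p = 0.00923) and Ta.7378.22.S1_at of a histone cluster 0.86 (adjusted p = 0.0447). Ta.7989.1.A1_at gave -2.0 (adjusted p = 0.00252) and Ta.18559.1.S1_at -1.81 (adjusted p = 0.0369). TaAffx.85615.1.S1_at was added to the named probe sets after its values were seen.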

How the results depend on the processing

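Of the 228 calls between FR CA and FS CA, 105 were repeated under at least 9 of 17 alternatives and 0 under all 17. Fits that left out a CA array repeated most calls. Under all 9 alternatives other than leaving out an array, 0 of the 228 were called. Across the 157 named probe sets and the alternatives, 2345 results kept their side of the threshold, 242 lost a call, 48 gained one and 0 of the called changed direction.

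In the order FR CA higher, FR CA lower, NT and difference in response, the robust prior gave 25, 10, 4 and 15 calls in place of 151, 77, 13 and 66. Centring on the poly-A spike-ins gave 400, 152, 7 and 259. A requirement of at least 2-fold gave 87, 19, 0 and 17. With only the 4 arrays compared, the counts were 31 and 22 in CA and 28 in NT. Among probe sets above the median there were 47 lower in CA, 0 in NT and 21 for the response. Raising values to the array median left 1 in NT, and centring on medians left 7. Leaving out 1 array gave 21 to 1933 higher and 11 to 1568 lower in CA, 14 to 1212 in NT and 888 to 1862 for the response, the last reaching 1862 without FR CA replicate 1. The response was 888 at the fewest, without FS NT replicate 2. The cause was not tested, but each such fit leaves a group with 1 array.

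With the replicate number as a block, 23 were called higher and 12 lower in CA and 22 for the response, and 34 of the 35 CA calls are among the 228. Of the 10 largest differences in each direction, 0 of the higher and 1 of the lower (Ta.7989.1.A1_at) were called with the block. The labels do not tie a replicate number to anything shared. Deviations of arrays of equal number correlated at 0.0809 to 0.362, over 0.1 in 5 of the 6 pairs of groups, and the 5′ sucrose synthase control was lower on replicate 2 in every group. Signals under the array median, as in 33 of the 77 lower calls, bound what the arrays can resolve.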
